A study of Mus musculus with 5 samples.

Results

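The genes described here are 35 members of glucose metabolism. They cover the enzymes of glycolysis and of the pentose phosphate pathway and the glucose and monocarboxylate transporters. Also among them are the regulator Hif1a, and Pdk1 and Pdha1 at the exit of glycolysis. The members were chosen by name and not by a cut on their level, though with earlier results of these data known. All 35 were found by symbol among 49671 genes of the deposited FPKM table (counts divided by gene length and library total) and, by gene identifier, among 24984 genes of the count table. The libraries came from male C57BL/6J wild-type mice aged 10 weeks whose corpus callosum was demyelinated by an injection of 2 µl of 1% lysophosphatidylcholine (LPC), and the lesions were taken at 10 days post-lesion (dpl). Monocyte-derived macrophages (MDM, 2 libraries, LPC_130 and LPC_131) were sorted as CD11b+ Ly6G- CD3- CD45hi cells and microglia (3 libraries, LPC_127, LPC_128 and LPC_129) as the CD45lo cells of the same gate. Every mouse carried an LPC lesion, so no library shows either cell type without demyelination. The CD45hi gate is a model of infiltrating monocytes only as far as CD45 separates them from microglia, few such cells are in a lesion, and their RNA was amplified from an ultra-low input. The name MDM follows the sample labels. The study calls these cells monocytes and reports that most of them lacked markers of mature macrophages. The study counts the libraries as mice, but the labels do not say whether 1 animal or a pool gave each library, so the p-values below measure the spread between these libraries. Values listed without library names stand in the order LPC_130, LPC_131 for MDM and LPC_127, LPC_128, LPC_129 for microglia.

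Glycolysis splits glucose into pyruvate, yielding ATP without oxygen, and the lactate dehydrogenases turn pyruvate into lactate, which leaves the cell through monocarboxylate transporters. The pentose phosphate pathway branches off at glucose 6-phosphate and makes NADPH and ribose. In myeloid cells, inflammatory activation is known for raised glucose uptake and glycolysis under the transcription factor HIF-1α, the product of Hif1a, whose textbook targets include most glycolytic genes.

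The libraries held 3417150 and 6514611 gene counts in MDM LPC_130 and LPC_131, and 6633766, 9021700 and 5890081 in microglia LPC_127, LPC_128 and LPC_129. Depth in this sense did not describe how many genes were seen. Of the 10105 genes that passed edgeR's expression filter on counts, 13.1% and 40.4% had at least 10 counts in MDM LPC_130 and LPC_131, against 97.7%, 97.6% and 56.9% in microglia LPC_127, LPC_128 and LPC_129. Mitochondrially encoded genes took 39.9% and 28.5% of the counts in MDM LPC_130 and LPC_131, against 11.1%, 39.0% and 17.6% in the microglia libraries. MDM LPC_130 stood apart as the sparsest library, and microglia LPC_129 was the sparsest of its group. The 7 listed microglia markers were each lower in both MDM libraries than in every microglia library, as 48.0% of all tested genes were, summing to 1633 and 2427 CPM (counts scaled to the library total) in MDM LPC_130 and LPC_131 against 7606, 7016 and 14811 CPM in the microglia libraries. The listed monocyte and macrophage markers summed to 6086 and 3189 CPM in the MDM libraries, against 1547, 917 and 192 CPM in the microglia libraries. Of these, Vcan, a matrix proteoglycan, had 8006 and 0 counts in MDM LPC_130 and LPC_131 and 12, 2 and 0 in microglia, so 1 library carried it. edgeR called it higher (adjusted p = 0.0479), but not without microglia LPC_128 or LPC_129, and without MDM LPC_130 it was below the filter. Fn1 was also highest in MDM LPC_130 and Lyz2 in MDM LPC_131. Ccr2, the chemokine receptor of classical monocytes, went the other way, with 0 and 0 counts in MDM and 12, 52 and 0 in microglia, and the defining marker Ly6c2 was listed at 0 in all 5 libraries. All 4 T cell markers were at 0, and no neutrophil marker passed 1 count in any library. Other lists had some counts. Ighm of B cells had 26 and 3447 in MDM and 3098, 4322 and 2536 in microglia, with Cd79a at 0. Flt1 of endothelium had 1 and 3205 in MDM and 519, 688 and 5 in microglia, with Cdh5 at 2 or fewer. Mbp of oligodendrocytes had 3 and 3 in MDM and 595, 385 and 49 in microglia. The astrocyte Slc1a2 had 0 and 269 in MDM and 2, 30 and 0 in microglia. Neuronal Tubb3 had 105 and 1 in MDM and 0, 0 and 0 in microglia.

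The promoters of the members are shown for 5 genes that carry the contrasts below: 3 enzymes of lower glycolysis with their highest level in MDM LPC_131 (Gapdh, Eno3, Pgk1) and 2 genes low in both MDM libraries (Ldha, Hk2). The stretches are mouse RefSeq sequence (build GRCm38.p6), 5′ to 3′ on the strand of the gene. Capitals mark the core of the hypoxia response element, to which HIF-1 binds, searched as ACGTG or GCGTG on both strands, so also as CACGT or CACGC.
Gapdh, chr6:125165793-125165847, minus strand: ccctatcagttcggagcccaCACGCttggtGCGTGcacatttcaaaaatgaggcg
Eno3, chr11:70657026-70657070, plus strand: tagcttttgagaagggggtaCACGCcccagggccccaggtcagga
Pgk1, chrX:106186930-106186993, plus strand: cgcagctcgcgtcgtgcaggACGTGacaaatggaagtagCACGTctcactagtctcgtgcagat
Ldha, chr7:46845736-46845794, plus strand: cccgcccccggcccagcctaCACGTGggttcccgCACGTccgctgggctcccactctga
Hk2, chr6:82774482-82774526, minus strand: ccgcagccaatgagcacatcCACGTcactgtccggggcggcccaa
In Ldha the match on each strand overlaps in the palindrome, and both are counted. Cores farther upstream are not shown for 2 genes. The searched window held 5 cores for Ldha and 2 for Hk2, and the stretches show 3 and 1. The Gapdh stretch begins 74 bases before the RefSeq start site, that of Eno3 150, that of Pgk1 170, that of Ldha 68 and that of Hk2 72 bases before it. At least 1 core lay in the 250 bases before a start site for 31 of the 34 members with a promoter entry, which is 91.2%, against 41.5% of all 27025 genes with one. A gene with several start sites counted if any of its windows held a core. Counted by window, 39 of 48 member windows held a core (81.25%), against 38.6% of the 32851 windows of all genes. The member windows were also richer in G and C, with a median of 60.4% against 52.4% over all windows, and the part of base composition in the difference was not tested. Eno2, Gpi1 and Tpi1 had no core in this window. The core was present in all 11 members that were lower in both MDM libraries and in all 6 members that were highest in MDM LPC_131. Its presence cannot tell these patterns apart, because 31 of 34 members carry it and the 3 without it are in neither group. A match of 5 bases is a description of the sequence and not a binding site.

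Read together, the 35 members took 0.00691% of all gene counts in MDM LPC_130 (236 counts) and 0.409% in MDM LPC_131 (26641 counts), against 0.522%, 0.216% and 0.136% in microglia LPC_127, LPC_128 and LPC_129 (34650, 19455 and 8010 counts). Wilson 95% intervals, which cover counting error only, ran from 0.00608% to 0.00785% in MDM LPC_130 and from 0.404% to 0.414% in MDM LPC_131. The mean share was 0.208% ± 0.284 in MDM and 0.291% ± 0.204 in microglia (SD, n = 2 and 3). The groups overlapped, with MDM LPC_131 between microglia LPC_127 and LPC_128 and MDM LPC_130 below every microglia library. In these bulk samples, fewer cells expressing a gene and less of its RNA per cell cannot be told apart.

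**Figure D1:**
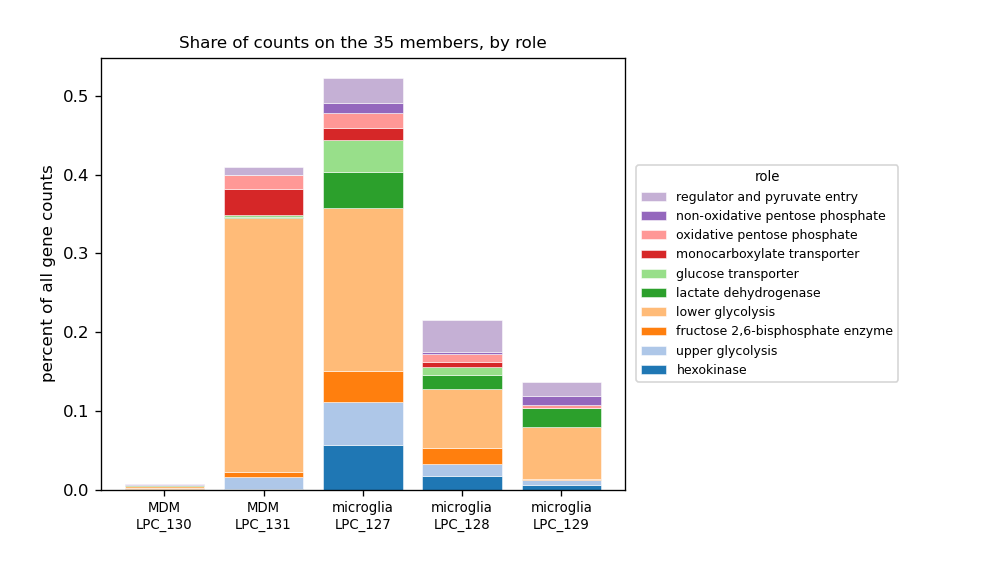
Share of all gene counts on the 35 members (percent, vertical axis) in each MDM and microglia library, stacked by role. MDM LPC_131 reached 0.409% and microglia LPC_127 0.522%, MDM LPC_130 held 0.00691%, and most of the MDM LPC_131 bar is lower glycolysis.

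In MDM LPC_131 the 6 members with a higher level than in every microglia library, namely Gapdh, Pgk1, Pgam1, Eno3, the lactate exporter Slc16a3 and G6pdx, held 83.0% of the member counts, a share that restates how they were picked. The same 6 genes held 45.3% in MDM LPC_130, against 30.0%, 30.0% and 39.4% in microglia LPC_127, LPC_128 and LPC_129. Most of the share in MDM LPC_130 was Gapdh, at 38.1% of the member counts, close to its 38.6% in microglia LPC_129. At the other end, 11 of the 35 members were lower in both MDM libraries than in every microglia library: the hexokinases Hk2 and Hk3, the liver-type phosphofructokinase Pfkl, both lactate dehydrogenases, Pgls, Pgd, Tkt, Taldo1 and Rpia of the pentose phosphate pathway, and Pdk1. Over all genes tested 48.0% lay this way, so the count for the members is below the background. No member was higher in both MDM libraries, against 0.673% of all genes, and 24 overlapped. These counts depended on scaling and on single libraries. On totals scaled by TMM (trimmed mean of M values, edgeR's between-library factors) Hk3, Ldha, Taldo1 and Rpia remained lower (background 21.5%) and G6pdx and Pgk1 were higher (4.91%). Without microglia LPC_129, 23 members were lower (75.5%) and none higher (0.782%). Without MDM LPC_131, 22 were lower (71.4%) and Aldoc, at 1 count, was higher (3.31%). Without MDM LPC_130, 13 were lower (55.2%) and the 6 named above were higher (12.3%).

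**Figure D2:**
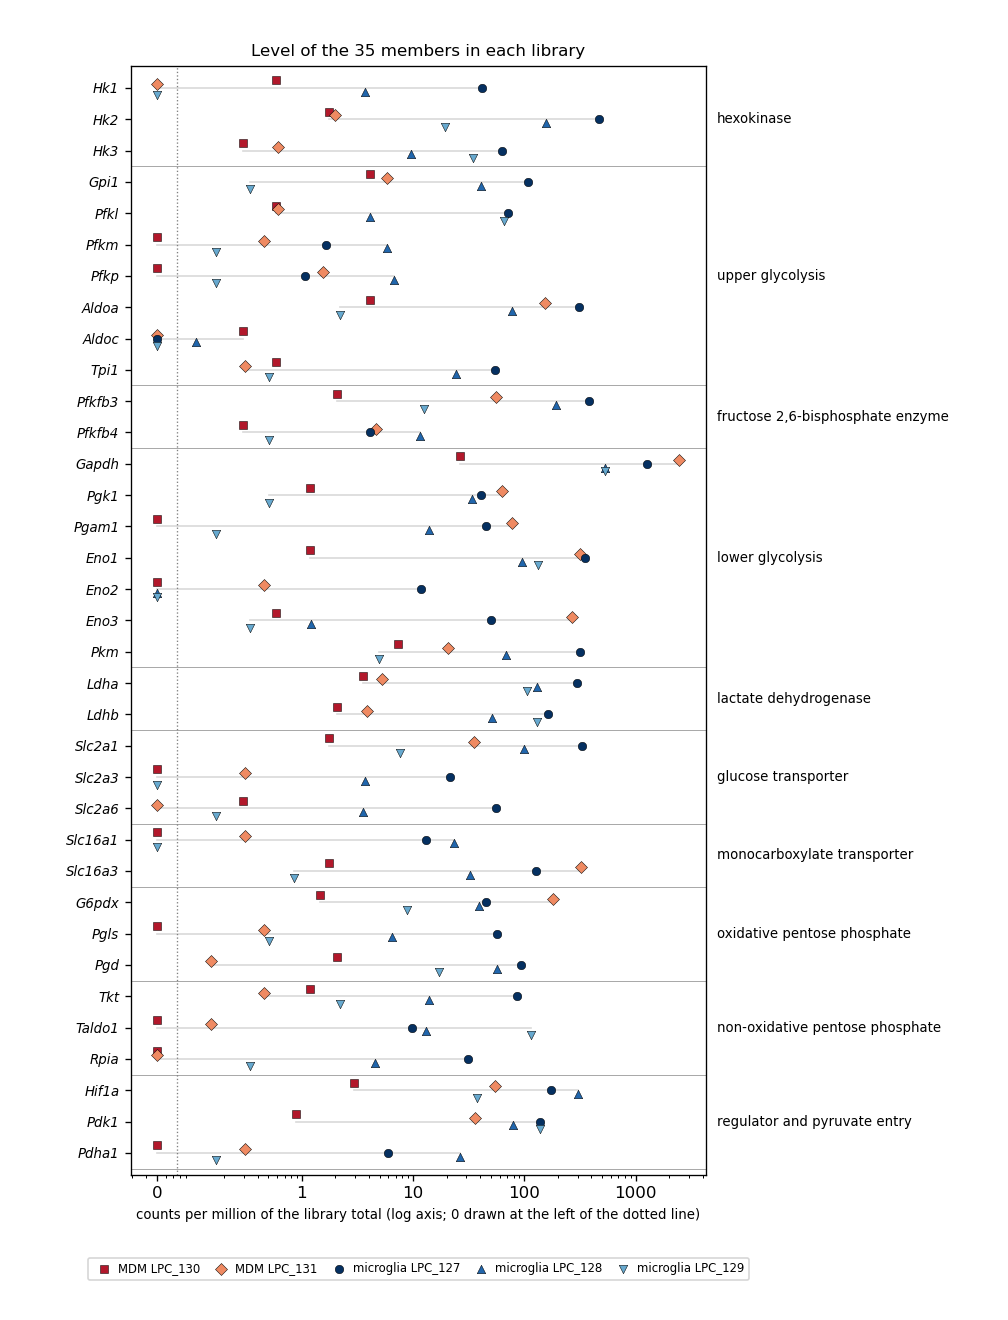
Level of each of the 35 members in CPM of the library total (log axis, zeros drawn left of the dotted line), grouped by role, with 1 symbol for each MDM and microglia library. MDM LPC_130 was the lowest of all libraries for 19 members, and both MDM symbols lie left of every microglia symbol for the 11 members named in the text.

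Transcripts of the hexokinases, enzymes that trap glucose in the cell by phosphorylating it, were barely detected in MDM. Hk2, the inducible hexokinase (GRCm38 chromosome 6, 82725025 to 82774454), stood at 0.294 and 0.334 FPKM in MDM LPC_130 and LPC_131, against 78.3, 26.3 and 3.24 FPKM in microglia LPC_127, LPC_128 and LPC_129. Its raw counts were 6 and 13 in MDM, against 3101, 1418 and 114 in microglia. Even the lowest microglia library was 9.70 times the higher MDM library in CPM, yet the microglia libraries themselves ranged over 24.2-fold. Hk3, a hexokinase typical of myeloid cells, was at 0.0795 and 0.167 FPKM in MDM against 17.2, 2.59 and 9.36 FPKM in microglia, again with no overlap. Hk1, the widely expressed form, had 2 and 0 counts in MDM and 273, 33 and 0 counts in microglia, so the groups overlapped at 0. Together the hexokinases had 9 and 17 counts in MDM, against 3793, 1537 and 317 counts in microglia.

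For all 3 glucose transporters the groups overlapped. Slc2a1 (GLUT1, the main transporter for basal glucose uptake) stood at 0.501 and 10.1 FPKM in MDM LPC_130 and LPC_131, against 93.9, 28.1 and 2.18 FPKM in microglia. MDM LPC_131 lay above microglia LPC_129 and below the other two. Slc2a3 (GLUT3) had 0 and 2 counts in MDM and 143, 33 and 0 in microglia, and Slc2a6 1 and 0 counts in MDM and 371, 32 and 1 in microglia. In all 5 libraries Slc2a1 made up most of the summed FPKM of these 3 transporters, from 84.6% and 99.6% in MDM to between 82.2% and 97.6% in microglia.

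Upper glycolysis, from glucose 6-phosphate to the triose phosphates, was mixed. Pfkl (chromosome 10, 77986947 to 78010083) was at 0.133 and 0.140 FPKM in MDM, against 16.1, 0.933 and 15.0 FPKM in microglia LPC_127, LPC_128 and LPC_129. It was the lone member of the 7 in this role whose groups did not overlap. Aldoa, the aldolase of muscle and most other tissues, stood at 1.09 and 40.9 FPKM in MDM against 82.7, 20.4 and 0.587 FPKM in microglia, so that MDM LPC_131 was within the range of microglia. Gpi1, which makes fructose 6-phosphate, was at 0.635 and 0.904 FPKM in MDM and 16.7, 6.30 and 0.0526 FPKM in microglia. Tpi1, the triose isomerase, had 2 and 2 counts in MDM and 360, 217 and 3 in microglia. For both, microglia LPC_129 lay below at least 1 MDM library. Pfkm and Pfkp, the other phosphofructokinases, did not pass 10 counts in MDM, with at most 3 and 10 counts, and reached at most 53 and 61 counts in microglia. Aldoc had at most 1 count in any library and was not tested. Of the makers of fructose 2,6-bisphosphate, the activator of phosphofructokinase, Pfkfb3 was at 0.271 and 7.41 FPKM in MDM against 50.2, 25.5 and 1.64 FPKM in microglia. Pfkfb4 was at 0.0600 and 0.945 FPKM in MDM and 0.835, 2.36 and 0.104 FPKM in microglia. Both genes were higher in MDM LPC_131 than in microglia LPC_129.

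Lower glycolysis, from glyceraldehyde 3-phosphate to pyruvate, was where MDM LPC_131 was high. Gapdh (chromosome 6, 125161715 to 125166467) stood at 6.37 and 599 FPKM in MDM LPC_130 and LPC_131, against 304.4, 127.6 and 126.97 FPKM in microglia LPC_127, LPC_128 and LPC_129. The MDM libraries were thus the lowest and the highest of the 5. Against 1000 counts of B2m, a gene that was high in all libraries, Gapdh had 3.93 and 355 counts in MDM and 261, 67.1 and 183 in microglia, with the MDM libraries again at both ends. Gapdh shares 68 exon bases with Iffo1 on the other strand, which had 4 and 1228 counts in MDM and 643, 126 and 0 in microglia. Pgk1, which yields the first ATP, was at 0.522 and 27.8 FPKM in MDM against 18.1, 15.1 and 0.227 FPKM in microglia. Pgam1, the phosphoglycerate mutase, was at 0 and 42.3 FPKM in MDM against 24.9, 7.63 and 0.0927 FPKM in microglia. MDM LPC_131 was the highest of the 5 libraries for both. Pgk1-rs7, a copy of Pgk1, had 24 and 0 counts in MDM and 9, 0 and 0 in microglia, so that in LPC_130 it exceeded the 4 counts of Pgk1 itself. Pkm, the pyruvate kinase, did not follow them, at 1.46 and 4.11 FPKM in MDM and 63.8, 13.7 and 0.985 FPKM in microglia. Pkm shares 767 exon bases with Gm49759 on the same strand. Gm49759 had 0 and 929 counts in MDM and 234, 170 and 626 in microglia. The effect of this overlap on the level of Pkm was not tested.

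The enolases, which make phosphoenolpyruvate, differed by paralog. Eno3 (chromosome 11, 70657202 to 70662513), the β-enolase known from muscle, stood at 0.337 and 155 FPKM in MDM LPC_130 and LPC_131, against 28.8, 0.701 and 0.195 FPKM in microglia. Eno1, the widely expressed α-enolase, was at 0.218 and 58.3 FPKM in MDM and at 65.7, 17.7 and 24.7 FPKM in microglia. Within the summed FPKM of the 3 enolases, which needs no scaling between libraries, Eno3 held 60.7% and 72.6% in MDM, against 29.7%, 3.82% and 0.785% in microglia. Both MDM libraries were above every microglia library. The mean share was 66.7% ± 8.43 in MDM and 11.4% ± 15.9 in microglia (SD, n = 2 and 3). For MDM LPC_130 it rests on 6 enolase counts in all, 2 of them Eno3, with an exact 95% interval for the share of counts from 4.33% to 77.7%. In MDM LPC_131 it rests on 1758 of 3805 counts. Among the 7 listed muscle genes, the skeletal actin Acta1 had 6 and 368 counts in MDM and 0, 1 and 0 in microglia and was called higher by edgeR (adjusted p = 0.0377), though not without any 1 of the microglia libraries, while the defining markers Ckm, Pvalb and Mylpf were at 0 in all 5 libraries. The list summed to 2.34 and 56.5 CPM in MDM, against 34.8, 0.333 and 0 CPM in microglia, and its part in the level of Eno3 was not tested. Eno2, the neuronal enolase, had 0 and 3 counts in MDM and 78, 0 and 0 counts in microglia and did not pass the filter.

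**Figure D3:**
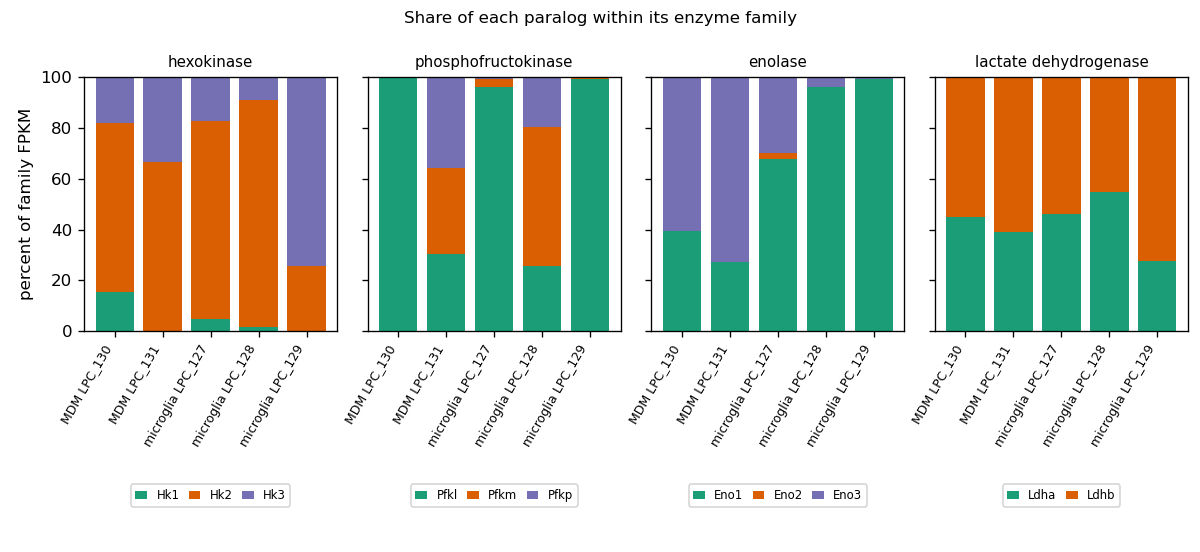
Percent of the summed FPKM of each enzyme family (vertical axis) held by each paralog in the MDM and microglia libraries. Eno3 held 60.7% and 72.6% of enolase in MDM LPC_130 and LPC_131, with 6 counts in LPC_130, and at most 29.7% in microglia, whereas the split between Ldha and Ldhb overlapped between the groups.

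The lactate dehydrogenases were low in both MDM libraries, including the one rich in lower glycolysis. Ldha (chromosome 7, 46841475 to 46855627), the form that favours lactate production, stood at 1.06 and 1.58 FPKM in MDM, against 89.0, 39.3 and 31.5 FPKM in microglia LPC_127, LPC_128 and LPC_129. The lowest microglia library was 20.01 times the higher MDM library in CPM. Ldhb, the form that favours pyruvate, was at 1.30 and 2.44 FPKM in MDM against 104, 32.3 and 82.3 FPKM in microglia, likewise with no overlap. Together they had 19 and 59 counts in MDM, against 3036, 1633 and 1376 counts in microglia. The balance between them did not separate the groups. Ldhb held 55.2% and 60.8% of the family FPKM in MDM and 53.8%, 45.1% and 72.3% in microglia.

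The monocarboxylate transporters, which carry lactate and pyruvate across the membrane, were led by Slc16a3 (MCT4, the lactate exporter of glycolytic cells). It stood at 0.330 and 61.2 FPKM in MDM LPC_130 and LPC_131, against 23.9, 6.04 and 0.160 FPKM in microglia. MDM LPC_131 was 2.56 times the highest microglia library in CPM, and MDM LPC_130 had 6 counts. Slc16a1 (MCT1) had 0 and 2 counts in MDM and 86, 211 and 0 counts in microglia. In MDM LPC_131 a high level of the lactate exporter thus stood beside 34 counts of Ldha.

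The pentose phosphate pathway had its entry enzyme and its later enzymes on different sides in MDM LPC_131. G6pdx (chromosome X, 74409483 to 74429194), which commits glucose 6-phosphate to the pathway, stood at 0.475 and 59.1 FPKM in MDM LPC_130 and LPC_131, against 14.6, 12.8 and 2.87 FPKM in microglia. MDM LPC_131 was 4.05 times the highest microglia library in CPM. G6pdx shares 418 exon bases with Ikbkg on the other strand, which had 2 and 3763 counts in MDM and 159, 160 and 10 in microglia. The library kit does not mark strand, so reads of the shared stretch cannot be told apart. Pgd, the next NADPH-yielding step, was at 0.318 and 0.0238 FPKM in MDM against 14.3, 8.79 and 2.63 FPKM in microglia, with no overlap. Pgls, the lactonase between them, had 0 and 3 counts in MDM and 377, 58 and 3 counts in microglia, so its separation is of 0.461 against 0.509 CPM. The non-oxidative members Tkt, Taldo1 and Rpia, which interconvert the sugars, had together 4 and 4 counts in MDM, against 844, 284 and 691 counts in microglia. Taldo1 (chromosome 7, 141392199 to 141402968) was at 0 and 0.0707 FPKM in MDM, against 4.51, 5.97 and 52.9 FPKM in microglia. No other member had its highest level in microglia LPC_129. Tkt had 4 and 3 counts in MDM and 574, 126 and 13 in microglia, and Rpia 0 and 0 counts in MDM and 205, 41 and 2 in microglia.

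Hif1a was at 0.496 and 9.16 FPKM in MDM, against 29.7, 51.2 and 6.36 FPKM in microglia, with MDM LPC_131 above microglia LPC_129. Pdk1, the kinase that shuts pyruvate out of the mitochondria, was at 0.113 and 4.58 FPKM in MDM against 17.6, 10.1 and 17.6 FPKM in microglia, with no overlap. It was the steadiest member among the microglia libraries, which ranged over 1.74-fold. Pdha1, the subunit of pyruvate dehydrogenase that Pdk1 phosphorylates, had 0 and 2 counts in MDM and 39, 238 and 1 counts in microglia.

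The question of the comparison was which of these genes differ between MDM and microglia in the lesion, and no member passed the test. edgeR's quasi-likelihood test with Benjamini-Hochberg adjustment over 10105 genes covered 33 members (Aldoc and Eno2 were below the filter) and called 0 of them higher (background 0.0594%, 6 genes) and 0 lower (background 0%). At an unadjusted p under 0.05, 3 members were higher (background 8.52%) and 1 was lower (3.35%). Eno3 had a log2 fold change, MDM over microglia, of 5.57 (SE 2.10, adjusted p = 0.211), Slc16a3 of 4.16 (SE 2.01, adjusted p = 0.378) and G6pdx of 3.90 (SE 1.94, adjusted p = 0.402), all by edgeR. Each of them was above every microglia library in MDM LPC_131 alone. Taldo1 had -6.77 (SE 2.87, edgeR adjusted p = 0.278) and was below every microglia library in both. limma-voom called 0 members (backgrounds 0.317% higher and 0% lower). DESeq2 called the same 4 genes, Eno3, Slc16a3 and G6pdx higher (background 19.5%) and Taldo1 lower (1.98%), with no adjusted p for 12 of the 33.

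For the sugar-phosphorylating and lactate-forming enzymes that were lower in both MDM libraries, the edgeR log2 fold change was -2.61 for Hk2 (SE 2.08), -2.96 for Hk3 (SE 2.36), -2.69 for Pfkl (SE 2.21), -1.45 for Ldha (SE 1.95) and -1.73 for Ldhb (SE 1.97), with adjusted p from 0.555 to 0.717. It was -3.35 for Pgls (SE 2.69), -0.83 for Pgd (SE 1.94), -0.73 for Tkt (SE 2.09) and -0.48 for Pdk1 (SE 1.84), with edgeR adjusted p from 0.557 to 0.910. None is given for Rpia, which was at 0 in both MDM libraries. Of the members above every microglia library in MDM LPC_131 alone, Gapdh had 2.96 (SE 2.17), Pgk1 2.88 (SE 1.81) and Pgam1 3.46 (SE 1.84), with edgeR adjusted p from 0.442 to 0.539. The standard errors were of the same order as the changes. Leaving out an MDM library leaves 1 in that group, and the spread then comes from the microglia libraries alone. Without MDM LPC_130, edgeR called 1 member, Eno3 (log2 fold change 6.31, adjusted p = 0.0147), among 343 genes higher (background 2.61%) and 0 lower. Without MDM LPC_131 it called 0 members, against 326 genes higher (2.51%), and the log2 fold changes of Eno3, Slc16a3, G6pdx, Gapdh, Pgk1 and Pgam1 were all below 0. The median log2 fold change of the tested members was -0.65, against -1.11 over all genes. It was -3.31 on library totals, against -4.73 over all genes. With RLE factors, edgeR's other scaling, it was 0.30, against -0.63 over all genes, so the sign of the members' median differed between scalings while it lay above that of all genes on each of the 3 scales. The 7 microglia markers, each lower in both MDM libraries on library totals, had a median log2 fold change of -0.08 with TMM factors and -2.85 on library totals.

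**Figure D4:**
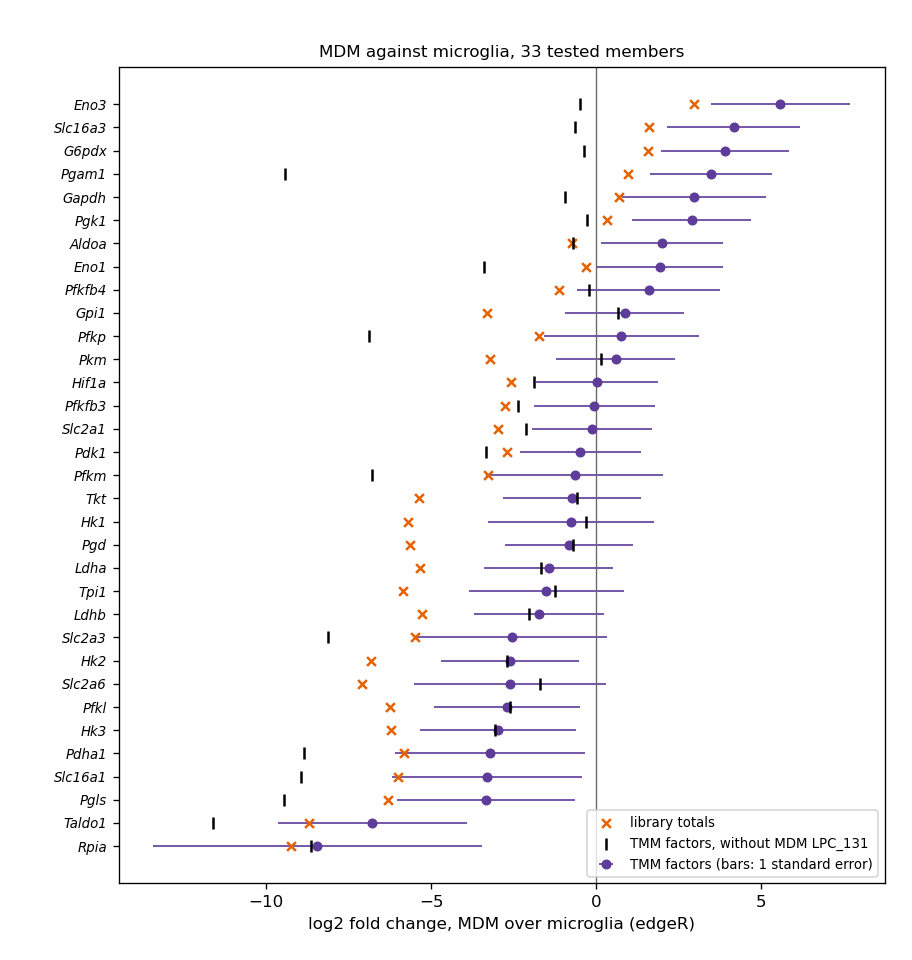
Log2 fold change, MDM over microglia, of the 33 tested members by edgeR (horizontal axis), with TMM factors (points, bars of 1 standard error), on library totals (crosses) and with TMM factors but without MDM LPC_131 (ticks). Eno3 lies highest at 5.57, and its tick without MDM LPC_131 lies at -0.48.

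The spread between libraries of 1 group was larger for the members than for genes at large. Among microglia, the highest library was a median of 36.9 times the lowest over 30 members with a value in all 3, against 10.5 over all genes tested. Between the MDM libraries the median was 17.1 over 22 members, against 4.72 over all genes. Microglia LPC_127 was the highest of the 5 libraries for 21 members, and microglia LPC_129 the lowest of its group for 27. For 20 members microglia LPC_129 lay below MDM LPC_131.

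The neighbouring pathways held no gene called by edgeR either. The 9 listed sets ran from other glycolytic enzymes to the tricarboxylic acid cycle and ubiquitous genes. Of their 68 tested genes edgeR called 0 (backgrounds 0.0594% higher and 0% lower). At an unadjusted edgeR p under 0.05, 5 were higher (background 8.52%) and 2 lower (3.35%). limma-voom called 0 (backgrounds 0.317% higher and 0% lower). DESeq2 called 5 over both directions together. Its backgrounds, 19.5% higher and 1.98% lower, are over the 5056 genes that it gave an adjusted p. How many of the 68 had one was not counted, so the 5 cannot be set directly against these shares. In glycogen metabolism, where glucose is stored, the branching enzyme Gbe1 had 1 and 3726 counts in MDM, against 84, 60 and 3 in microglia, with the MDM libraries at both ends as for Gapdh. The list of the HIF pathway and its textbook targets had 19 and 604 counts in MDM, against 4645, 3375 and 987 counts in microglia, with 5 of its 10 tested genes lower in both MDM libraries, near the 48.0% of all genes. Bnip3 of that list, a mitophagy receptor, had 0 and 344 counts in MDM and 133, 40 and 0 in microglia. Of the 10 ubiquitous genes, 4 were lower in both MDM libraries than in every microglia library, against 48.0% of all genes, among them Hprt with 3 and 3 counts in MDM against 124, 666 and 252 counts in microglia.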

How the data were processed

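RNA of sorted cells was amplified with the Ovation RNA-Seq System V2 kit, which does not mark strand. Counts of read pairs per gene were made and deposited by the authors with STAR 2.5.2a (GRCm38, GENCODE vM12), as the submitters' processing notes and the study's methods give them. The authors also deposited FPKM, which in every library equals the count divided by gene length and library total, with no TMM factor. The 5 columns mapped to these libraries were used, and 4 columns of each table, which belong to other samples, were not. The authors' log2 CPM table and their tables of fold changes and p-values were not used.

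Genes were filtered with filterByExpr and tested with edgeR 4.0.16 (quasi-likelihood test, TMM factors, Benjamini-Hochberg, threshold 0.05). TMM factors were 0.0929 and 0.611 for MDM, against 3.76, 2.73 and 1.71 for microglia. Since the study used limma, limma-voom 3.58.1 was an alternative, as were DESeq2 1.42.0, other factors and filters, and leaving out each library. All 35 members are described, and fold changes are given for members with no overlap between groups, above every microglia library in LPC_131, or with an unadjusted p under 0.05, except Rpia, at 0 in both MDM libraries. Of the other lists, genes past the threshold, defining markers and those with the most counts or highest FPKM are named. Hprt, Ccr2, Cd44, Bnip3, Ikbkg, Iffo1, Gm49759, Pgk1-rs7 and Mpc1 are named outside this rule, after their values were seen. Some genes of these lists are not reported here. Members and lists were chosen with earlier results of these data known. Gene positions are from GENCODE vM21 (GRCm38). A count of 3 corresponds to 0.878 and 0.461 CPM in MDM, against 0.452, 0.333 and 0.509 CPM in microglia. No library was found deposited more than once.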

Additional observations from a re-analysis of the deposited data

How the results depend on the processing

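The count of members called, 0 by edgeR, was 4 with DESeq2 (Eno3, Slc16a3, G6pdx and Taldo1) and from 0 to 1 when each library was left out in turn, the 1 being Eno3 without MDM LPC_130, where MDM is 1 library assumed to vary as microglia do. It stayed 0 with limma-voom, library totals, RLE factors, either other filter and TMM factors from well-covered genes (10 counts or more in each library). Over all genes the count, 6 by edgeR, was 32 with limma-voom, 1087 with DESeq2, 0 on library totals, 70 with no filter, 14 with a filter of CPM above 1 in at least 2 libraries and 3 with TMM factors from the well-covered genes. It ranged from 0 to 343 when libraries were left out, with 343 without MDM LPC_130, 326 without MDM LPC_131 and 0 without any 1 microglia library, where fewer genes were tested. On TMM-scaled totals 4 members were lower in both MDM libraries and 2 higher, against 11 and 0 on library totals. With a library left out the counts were 11 to 23 lower (the 23 without microglia LPC_129) and 0 to 6 higher (the 6 without MDM LPC_130).

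The log2 fold changes of 6 members above 0 turned below it without MDM LPC_131. Their ranges over libraries left out were -0.48 to 6.31 for Eno3, -0.64 to 4.85 for Slc16a3, -0.38 to 4.53 for G6pdx, -0.94 to 3.57 for Gapdh, -0.27 to 3.42 for Pgk1 and -9.43 to 4.19 for Pgam1. The low value of Pgam1 is set by its 0 counts in MDM LPC_130. Pdk1 had -0.48 by edgeR, 0.31 with DESeq2, 0.30 with RLE factors and -3.33 to 0.085 over libraries left out. The other members' fold changes given in the text kept their direction in every alternative that gave a value. Outside the members, Vcan and Acta1 stayed above 0 in each alternative that tested them. Both calls were lost on library totals, that of Vcan also with limma-voom and with no filter, and that of Acta1 with TMM factors from the well-covered genes. The edgeR adjusted p with a microglia library left out was 0.153 to 0.472 for both. The Eno3 share of enolase in MDM was 39.8% from raw counts, which weight genes by length, in place of 66.7% from FPKM.

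No paired analysis was possible because the libraries of the groups share no replicate number. With 2 MDM libraries, one of them with 236 counts over all members, no member's difference passed edgeR's test with all 5 libraries, and zeros in LPC_130 do not show absence.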

Other observations

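Outside the members, some genes of glucose metabolism had their counts in 1 or 2 libraries. Pgam2, the muscle phosphoglycerate mutase, had 0 and 0 counts in MDM and 231, 2 and 0 counts in microglia, so it was seen in LPC_127 and not beside Eno3 in LPC_131. Mpc1, a subunit of the mitochondrial pyruvate carrier, had 157 and 0 counts in MDM and 118, 11 and 0 in microglia, a gene with counts in the sparsest library and none in LPC_131. Slc2a5, the fructose transporter known from microglia, had 4 and 767 counts in MDM, against 581, 473 and 8 counts in microglia. Mpc1 and Slc2a5 were not called by edgeR, and Pgam2 was below its filter.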
